A study of Mus musculus with 18 samples.

Results

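The genes described here encode the enzymes of cholesterol synthesis, the enzymes of fatty acid synthesis and the proteins that regulate both. They were listed by symbol as 18 sterol enzymes, 6 regulators and 7 fatty acid enzymes, 31 genes in all. A probe was found for 30 of the 31 through its RefSeq name, among the 22911 symbols with a probe on the array, and all 30 were tested. No probe had a RefSeq name that mapped to Acat2, so this cytosolic thiolase at the entry of the sterol pathway has no value below. The brightest probe stood for each gene.

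RNA came from 6 groups of mouse tissue, each of 3 arrays. Each array carried total RNA pooled from 3 animals, so that 9 animals stood behind a group. ERBOE mice, which the study describes as overexpressing oestrogen receptor beta, were set against PRCre/+ mice, which carry the Cre allele without that overexpression and are called PRCre here. Uterus was taken at estrus from both genotypes at 12 weeks of age, without surgery. Ectopic lesions grew from a 2 mm uterine fragment of an ERBOE or PRCre donor of 8 weeks, placed in a wild-type, intact C57BL/6J host of 8 weeks. The eutopic samples are the endometrium of ERBOE or PRCre mice, 8 weeks old at surgery, into which a wild-type fragment had been placed. Lesions and eutopic endometrium were both taken at estrus in week 4 after surgery. Because lesion hosts were wild type, host cells within a lesion carry neither allele, and the labels do not name the promoter that drives the overexpression. For ERBOE lesions and ERBOE eutopic endometrium another label says that the mice had no endometriosis, which goes against the titles. The titles were followed. Nothing says that the pools were prepared on separate days, so p-values measure the spread between pools.

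Cholesterol is built from acetyl-CoA through mevalonate, isoprenoids, squalene and lanosterol. Fatty acids are built from cytosolic acetyl-CoA by carboxylation, chain extension and desaturation, with NADPH as the reductant. The transcription factors SREBP-2 and SREBP-1, made by Srebf2 and Srebf1, switch on the sterol and the fatty acid genes. They do so when sterols are scarce or under insulin signalling, and the Insig proteins hold them back in the endoplasmic reticulum. The uterine epithelium proliferates under oestrogen at estrus, and white fat is a main site of fatty acid synthesis in mice.

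The 250 bases upstream of a gene's start were available for 25 of the 31 genes from RefSeq (GRCm38.p6), as 34 windows because some genes have several starts. Stretches of 5 of them are printed because they show boxes that recur upstream of sterol genes, set beside 1 stretch of a fatty acid gene, Me1, that holds none of the marked letters. Each is written 5′ to 3′ on the gene's strand and ends at the base before the start. Capitals mark the NF-Y box, CCAAT or its reverse complement ATTGG, and, in Hmgcs1 only, the core of a sterol regulatory element, TCACNCCAC. The stretches are chr13:119690151-119690350 (plus strand) for Hmgcs1, chr13:8885456-8885605 (plus) for Idi1, chr8:122443423-122443572 (minus) for Mvd, chr19:6067851-6068000 (minus) for Tm7sf2 and chr9:86695915-86696064 (minus) for Me1.
Hmgcs1: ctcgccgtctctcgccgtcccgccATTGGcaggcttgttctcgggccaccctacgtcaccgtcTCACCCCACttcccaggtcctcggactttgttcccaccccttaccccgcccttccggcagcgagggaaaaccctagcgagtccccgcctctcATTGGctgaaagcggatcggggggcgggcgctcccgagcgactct
Idi1: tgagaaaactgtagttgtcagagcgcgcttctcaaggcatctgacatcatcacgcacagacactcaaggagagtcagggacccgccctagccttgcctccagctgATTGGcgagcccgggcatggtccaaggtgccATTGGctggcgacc
Mvd: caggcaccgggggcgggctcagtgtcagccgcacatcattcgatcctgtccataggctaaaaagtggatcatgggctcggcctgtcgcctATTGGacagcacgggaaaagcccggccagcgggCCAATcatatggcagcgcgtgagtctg
Tm7sf2: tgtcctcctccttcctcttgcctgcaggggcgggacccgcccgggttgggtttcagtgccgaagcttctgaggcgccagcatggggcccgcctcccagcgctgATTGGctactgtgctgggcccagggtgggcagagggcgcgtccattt
Me1: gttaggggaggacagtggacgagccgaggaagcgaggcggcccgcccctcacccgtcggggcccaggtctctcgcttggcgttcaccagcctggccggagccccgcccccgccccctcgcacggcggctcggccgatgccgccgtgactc

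Searched on both strands of the 250 bases, CCAAT was found in 14 of 15 sterol genes, 4 of 5 regulators and 2 of 5 fatty acid genes, against 33.8% of all 32851 promoter windows in the table. The 2 fatty acid genes were Fasn, with 3 boxes of which the farthest lay 90 bases before the start, and Me1, whose other start has 1 box 208 bases before it, outside the stretch printed here. Counted by window CCAAT was in 77.8% of the 18 sterol windows, 50% of the 10 regulator windows and 33.3% of the 6 fatty acid windows. The Sp1 box GGGCGG was found in 14 of 15 sterol genes, 5 of 5 regulators and 2 of 5 fatty acid genes. By window it was in 83.3% of sterol, 70% of regulator and 33.3% of fatty acid windows, against 32.7% of all windows. The sterol element core was matched in 1 gene, Hmgcs1, and in 1.05% of all windows. The full palindromic oestrogen response element was matched in 0 of the 25 genes and in 0.0639% of all windows, which says only that these letters are not in these windows. CCAAT and GGGCGG on opposite strands can share letters at their ends. These matches describe letters and were not tested as sites.

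Levels are log2 values of the background-subtracted intensity relative to the 75th percentile of the same array, so a level of 0 equals that percentile and a step of 1 is a doubling. They were set only against levels of the same gene, because probes differ in brightness. On each array 53.2% to 73% of probes were well above background, and the 75th percentile signal ran from 239.6 to 744.7 with a median of 631.1. PRCre uterus replicate 1 was the dimmest array and held the lowest level of 8 of 17 sterol genes, 3 of 6 regulators and 5 of 7 fatty acid genes. Of the 30 genes, 28 were well above background on all 18 arrays, and Dhcr7 and Srebf2 on 17. The arrays lay on 3 slides. Each slide held PRCre and ERBOE uterus, slide 1 held no eutopic array and slide 3 no PRCre lesion. Markers of epithelium, stroma and smooth muscle were measured in every group, apart from the epithelial regulator Ovol1 in PRCre uterus, and the gland marker Cxcl15 was not well above background in ERBOE uterus or in either lesion group.

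**Figure D1:**
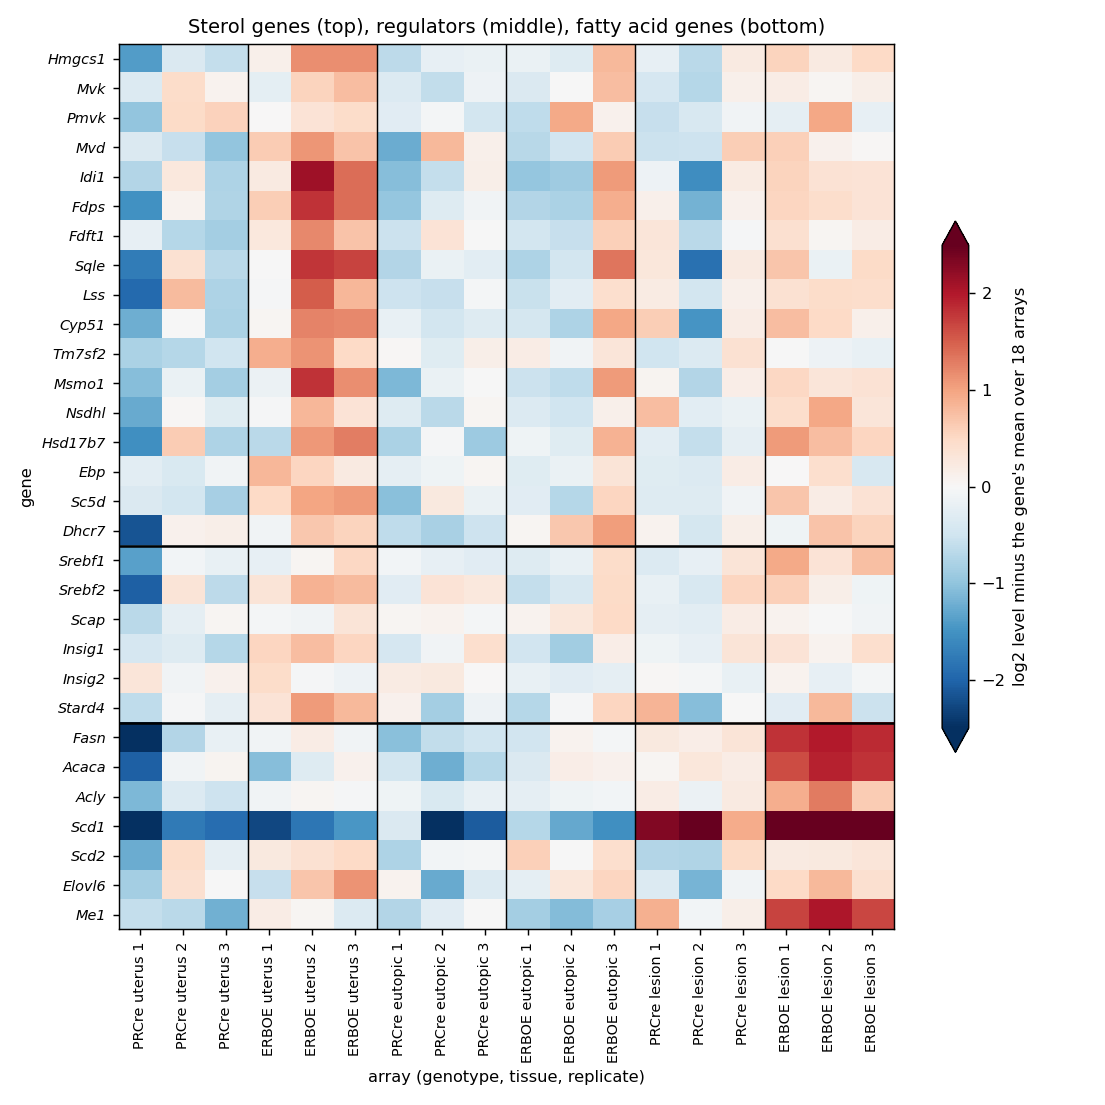
Each row is a gene and each column an array; colour gives the log2 level minus that gene's mean over 18 arrays, with black lines between groups and between the 3 gene sets. Most sterol rows are red in ERBOE uterus replicates 2 and 3 and in ERBOE eutopic replicate 3, and the rows of Fasn, Acaca, Acly, Scd1 and Me1 are red in the 3 ERBOE lesion arrays.

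The sterol and fatty acid sets were highest in different groups. ERBOE uterus had the highest group mean for 14 of 17 sterol genes, and PRCre uterus the lowest for 12 of them. ERBOE lesions had the highest group mean for 6 of 7 fatty acid genes. In 5 of the 7, Acly, Acaca, Fasn, Scd1 and Me1, all 3 ERBOE lesion arrays lay above each of the 15 other arrays. That held in ERBOE uterus for 1 sterol gene, Tm7sf2, and for 1 regulator, Insig1. How often all features show these patterns was not counted, so the counts only describe these genes.

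The comparison of ERBOE with PRCre uterus shows how the genotype differed in the organ without surgery. All 17 sterol genes read higher in ERBOE, by a median log2 difference of 1.41 where the median of all 33456 features was -0.11. None passed the adjusted threshold of 0.05 in limma, where 0% of features passed and the smallest adjusted p was 0.101. Of all features 40.5% read higher in ERBOE uterus. At an unadjusted p under 0.05, 19 of the 30 genes were higher and 0 lower, beside 4.19% of all features higher and 5.69% lower. The 19 were 13 sterol genes, 3 regulators and 3 fatty acid genes. In 9 of 17 sterol genes the 3 ERBOE arrays lay above the 3 PRCre arrays, against 6.3% of all features.

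Hmgcs1 makes HMG-CoA from acetoacetyl-CoA ahead of the mevalonate step. Its levels were 0.90, 1.93 and 1.69 in PRCre uterus and 2.41, 3.46 and 3.45 in ERBOE uterus. The groups did not overlap, and the lowest array of each was replicate 1. The difference was 1.60 ± 0.38 (SE, n = 3 arrays per group), a fold of 3.03 (limma, unadjusted p = 0.000796, adjusted p = 0.264), and it was 1.76, 1.53 and 1.51 within slides 1, 2 and 3. Mvk and Pmvk, the kinases that phosphorylate mevalonate, differed by 0.29 ± 0.34 and 0.25 ± 0.45, the smallest differences of the sterol set. Mvd, which decarboxylates mevalonate diphosphate to isopentenyl diphosphate, read -0.56, -0.76 and -1.18 in PRCre and 0.45, 0.92 and 0.53 in ERBOE, again without overlap.

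Idi1, the isomerase that supplies dimethylallyl diphosphate, read -0.30, 0.69 and -0.35 in PRCre uterus and 0.66, 2.54 and 1.83 in ERBOE uterus. ERBOE replicate 1 lay just under the highest PRCre array, and the difference was 1.66 ± 0.61 (unadjusted p = 0.0155, limma). Fdps, which makes farnesyl diphosphate, had the largest difference of the 30 genes, 1.99 ± 0.52 or 3.98-fold (adjusted p = 0.322, limma), from 0.61, 2.20 and 1.37 to 2.73, 3.92 and 3.51. Fdft1, squalene synthase, read 1.49, 0.98 and 0.85 in PRCre and 1.95, 2.89 and 2.40 in ERBOE. Its difference of 1.30 ± 0.36 was 1.55 and 1.90 within slides 1 and 2 and 0.46 within slide 3.

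Sqle, the epoxidase that oxidises squalene, read -0.57, 1.54 and 0.49 in PRCre uterus and 1.15, 2.95 and 2.86 in ERBOE uterus. ERBOE replicate 1 lay below PRCre replicate 2, and the difference was 1.83 ± 0.71 (unadjusted p = 0.0209, limma). Lss, which cyclises squalene epoxide to lanosterol, differed by 1.41 ± 0.54 and Cyp51, the lanosterol demethylase, by 1.51 ± 0.55. Lss read -3.20, -0.48 and -2.03 in PRCre and -1.29, 0.25 and -0.43 in ERBOE, so that PRCre replicate 2 reached the ERBOE range. Cyp51 read -0.69, 0.52 and -0.26 in PRCre and 0.59, 1.77 and 1.73 in ERBOE, just without overlap. The later steps from lanosterol to cholesterol were read by Tm7sf2, Msmo1, Nsdhl, Hsd17b7, Ebp, Sc5d and Dhcr7, with differences from 0.78 for Ebp to 1.64 for Msmo1. Msmo1, the methyl oxidase that starts removal of the methyl groups at carbon C4, read 0.56, 1.46 and 0.78 in PRCre and 1.49, 3.44 and 2.79 in ERBOE, and its lowest ERBOE array stood 0.03 above the highest PRCre array. Ebp, the isomerase that moves the ring double bond, read 4.21, 4.10 and 4.39 in PRCre and 5.31, 5.02 and 4.71 in ERBOE, without overlap. Nsdhl, which acts after Msmo1, and Hsd17b7 overlapped between the genotypes, with differences of 0.90 ± 0.37 and 1.12 ± 0.55.

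Tm7sf2, a sterol reductase that acts on the product of the lanosterol demethylase, had the smallest p of the set. Its levels were -0.26, -0.18 and 0.03 in PRCre uterus and 1.44, 1.66 and 1.04 in ERBOE uterus. All 3 ERBOE arrays stood about 1 log2 unit or more above all 3 PRCre arrays. The difference was 1.52 ± 0.24, a fold of 2.87 (unadjusted p = 1.95e-05, adjusted p = 0.186 in limma), and 1.02, 1.85 and 1.70 within slides 1, 2 and 3. With array weights, which give noisy arrays less influence, its adjusted p was 0.0459, the one of 32 alternatives in which it passed, and across them the adjusted p ran up to 0.579. Sc5d, the desaturase of the last steps, read -0.12, -0.22 and -0.59 in PRCre and 0.74, 1.24 and 1.32 in ERBOE, a difference of 1.41 ± 0.34.

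**Figure D2:**
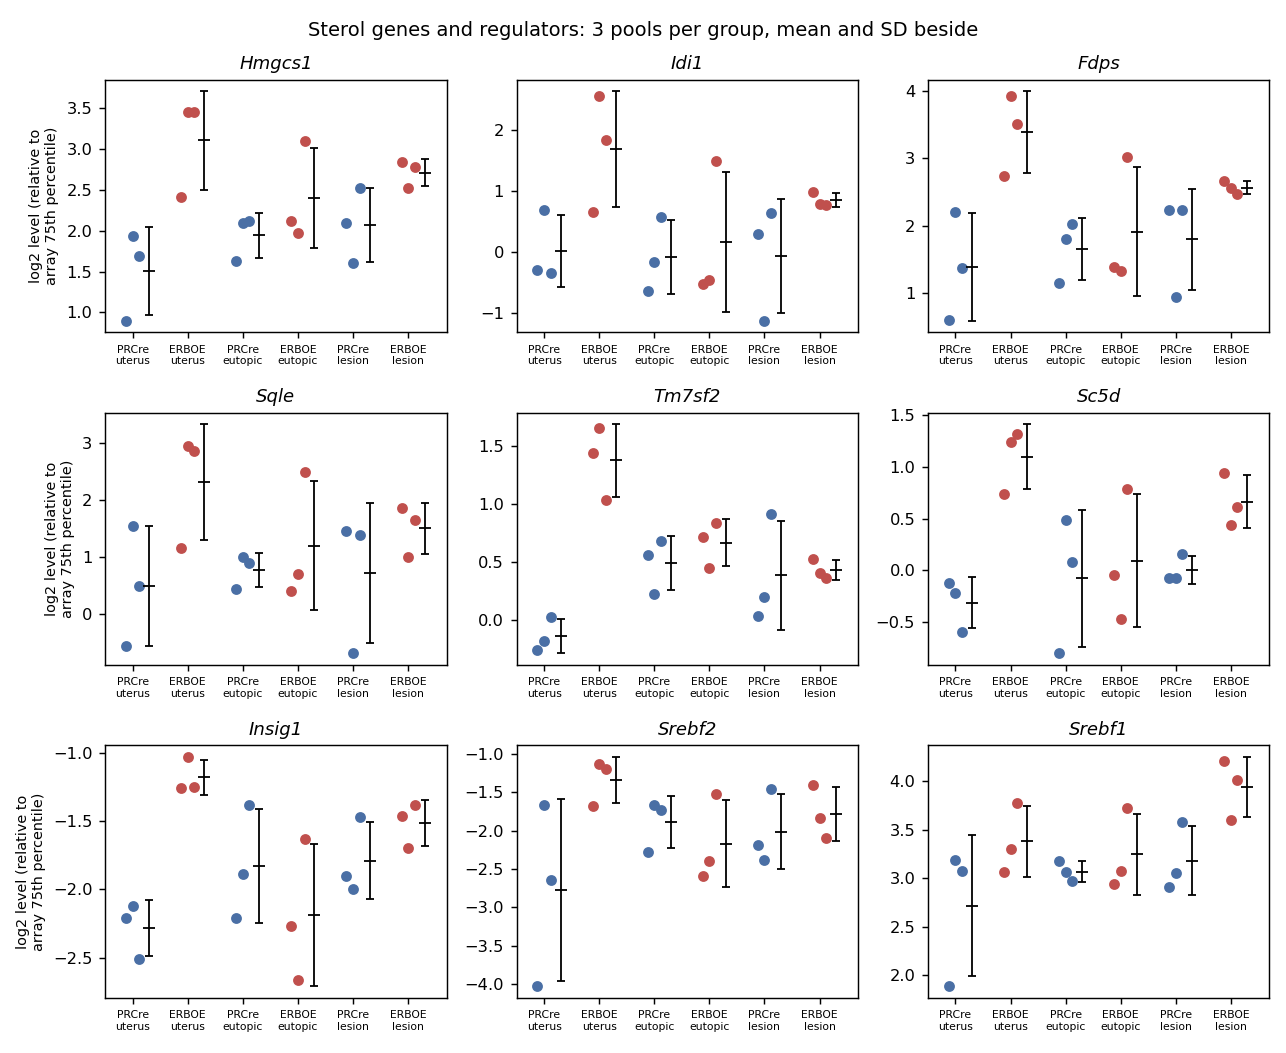
Log2 levels of 6 sterol genes and 3 regulators in 6 groups; each point is 1 array (PRCre blue, ERBOE red) and the black mark beside it is the mean with its SD (n = 3). For Tm7sf2 the ERBOE uterus points lie between 1.04 and 1.66, above all other points, and for Sqle 1 ERBOE eutopic point lies at 2.5, above the other ERBOE eutopic points.

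Among the regulators, 5 of 6 read higher in ERBOE uterus, by a median of 0.85. Insig1, which is itself a target of SREBP and retains the SREBP escort in the endoplasmic reticulum, read -2.21, -2.12 and -2.51 in PRCre and -1.26, -1.03 and -1.25 in ERBOE. The groups did not overlap, and the difference was 1.10 ± 0.27 (unadjusted p = 0.00123, adjusted p = 0.288, limma) and 1.26, 1.09 and 0.95 within the slides. Srebf2, the sterol regulator, read -4.03, -1.67 and -2.64 in PRCre and -1.68, -1.13 and -1.20 in ERBOE, a difference of 1.45 ± 0.48 that was widest on the slide of the dim array (2.35 on slide 3 against 0.55 on slide 2). Srebf1 differed by 0.66 ± 0.34 and Scap, the escort of SREBP, by 0.34 ± 0.22. Insig2, the other Insig isoform, differed by -0.01 ± 0.19, with a 95% interval from -0.42 to 0.40. Stard4, which carries cholesterol between membranes, differed by 1.04 ± 0.48.

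The fatty acid genes differed less in the uterus, by a median of 0.64, with 7 of 7 higher in ERBOE. Fasn, fatty acid synthase, read 2.08, 4.21 and 4.76 in PRCre and 4.86, 5.13 and 4.86 in ERBOE, and its difference of 1.27 ± 0.47 was 2.78 on slide 3 and 0.92 and 0.10 on slides 2 and 1. Without PRCre uterus replicate 1 the median of the 7 genes was 0.26, and the sign of Acaca (0.26 with all arrays) and of Scd1 (0.24) turned to -0.42 and -0.01. Me1, the cytosolic malic enzyme that yields NADPH, read 0.83, 0.77 and 0.24 in PRCre and 1.62, 1.48 and 1.09 in ERBOE, a difference of 0.79 ± 0.28. Acly, which cleaves citrate to cytosolic acetyl-CoA, differed by 0.64 ± 0.23.

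Other lists moved in the same comparison. All 12 epithelial markers read higher in ERBOE uterus, by a median of 1.57 (0 past the threshold in limma), and their summed linear signal, relative to the 75th percentile, ran from 141 to 215 in PRCre and from 289 to 551 in ERBOE. All 15 cell-cycle genes read higher, by a median of 1.25. Beside these 2 lists, 40.5% of all features read higher. Over ERBOE uterus replicates 1, 2 and 3 the sterol mean, centred over the 18 arrays, was 0.17, 1.17 and 0.91, the epithelial mean 1.13, 0.94 and 0.29 and the cell-cycle mean -0.17, 0.75 and 1.77. Replicate 1 thus had the lowest sterol and cell-cycle means of that group and the highest epithelial mean. The part of epithelial content and of cell cycling in the sterol difference was not tested, and in bulk tissue more cells of a type and more RNA per cell cannot be told apart.

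In eutopic endometrium the genotypes were closer. Of the 30 genes 24 read higher in ERBOE, as did 49% of features, and 1, Dhcr7, had an unadjusted p under 0.05, beside 1.76% of features higher and 1.22% lower. None passed the adjusted threshold in limma, as for 0% of features, of which 997 had an unadjusted p under 0.05. Dhcr7, which makes cholesterol from its last precursor, read -3.22, -3.39 and -3.09 in PRCre and -2.52, -1.91 and -1.54 in ERBOE, without overlap. The difference was 1.24 ± 0.50 (unadjusted p = 0.0247, adjusted p = 1, limma).

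The sterol set differed by a median of 0.26, and 1 array set much of it. ERBOE eutopic replicate 3 had a sterol mean of 0.70 about the genes' means, where the other ERBOE eutopic arrays had -0.42 and -0.31 and the PRCre arrays -0.63, -0.22 and -0.15. For Sqle the ERBOE levels were 0.40, 0.70 and 2.5 against 0.44, 1.00 and 0.90 in PRCre. Without replicate 3 the difference of Sqle turned from 0.42 to -0.23, that of Idi1 from 0.24 to -0.42 and that of Srebf1 from 0.17 to -0.07, and the sterol median turned to -0.15. The same array had the highest cell-cycle mean of the 18, 1.78, with ERBOE uterus replicate 3 next at 1.77. The part of cell cycling in the sterol levels of this array was not tested. The fatty acid genes differed by a median of 0.57, with Me1 the one lower in ERBOE. For Fasn, Acaca and Scd2 the 3 ERBOE arrays lay above the 3 PRCre arrays, against 5.12% of features.

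**Figure D3:**
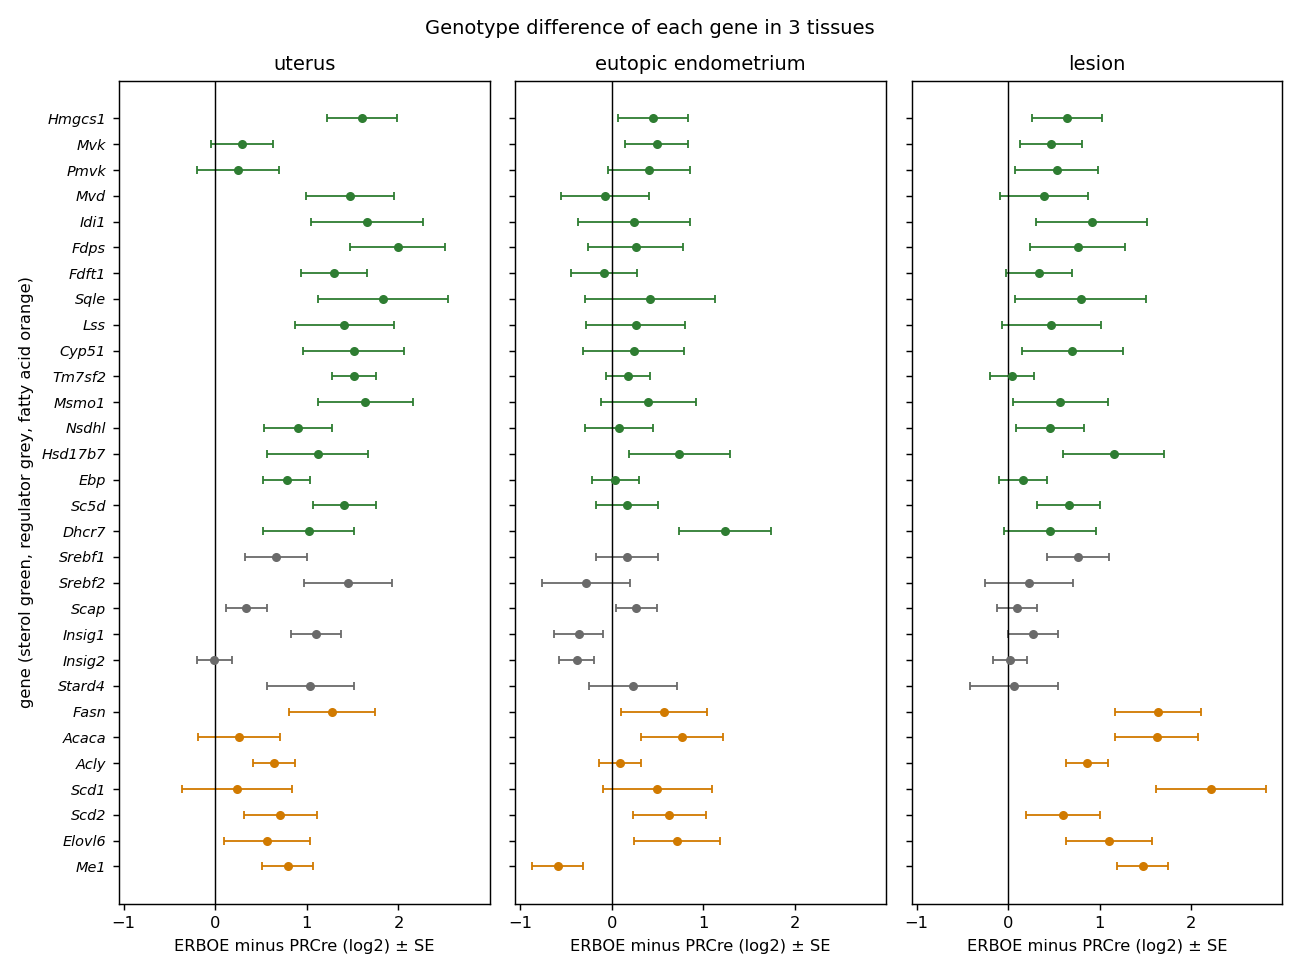
ERBOE minus PRCre log2 difference of each gene with its limma standard error, in uterus, eutopic endometrium and lesions; sterol genes are green, regulators grey and fatty acid genes orange, and the vertical line is 0. All 17 sterol genes lie right of 0 in the uterus with a median of 1.41, and the 7 fatty acid genes lie right of 0 in lesions with a median of 1.47.

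In lesions the median difference was larger for the fatty acid genes than for the sterol genes, unlike in the uterus. Eutopic endometrium had the same order, at 0.57 and 0.26. All 30 genes read higher in ERBOE lesions, as did 43.4% of features, with a median of 1.47 for the 7 fatty acid genes, 0.53 for the 17 sterol genes and 0.17 for the 6 regulators, beside -0.06 for all features. None passed the adjusted threshold in limma, as for 0% of features, whose smallest adjusted p was 0.0792. At an unadjusted p under 0.05, 7 genes were higher and 0 lower, beside 2.09% of features higher and 2.38% lower. The 7 were Me1, Acly, Scd1, Acaca, Fasn and Elovl6, and the regulator Srebf1. In 6 of 7 fatty acid genes and 7 of 17 sterol genes the 3 ERBOE arrays lay above the 3 PRCre arrays, against 5.28% of features. Of these sterol genes Hmgcs1 was apart only before rounding, as its nearest arrays both read 2.52. All 15 cell-cycle genes also read higher in ERBOE lesions, by a median of 1.01 and without overlap in 13 of them, and their part in these differences was not tested.

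Following the carbon from citrate, Acly read 3.91, 3.57 and 3.94 in PRCre lesions and 4.63, 5.02 and 4.36 in ERBOE lesions. Acaca, the carboxylase that makes malonyl-CoA and sets the rate of synthesis, read 2.45, 2.69 and 2.59 in PRCre and 4.04, 4.33 and 4.21 in ERBOE. The gap between the Acaca groups was far wider than the spread within either. Its difference was 1.62 ± 0.45, a fold of 3.07 (unadjusted p = 0.0029, adjusted p = 0.865 in limma), with 1.74 and 1.64 within slides 1 and 2. The 3 dimmer probes of Acaca gave 1.54, 1.61 and 2.31. Over the 14 genes that had other probes, 18 in all, 1 gene in lesions (Insig2), 1 in uterus (Acaca) and 2 in eutopic endometrium (Ebp and Stard4) had a probe of opposite sign.

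Fasn, which builds palmitate, read 5.19, 5.12 and 5.27 in PRCre lesions and 6.75, 6.92 and 6.81 in ERBOE lesions. Each group spread over less than 0.2 log2 units, and the difference of 1.64 ± 0.47 (3.12-fold, adjusted p = 0.873, limma) was 1.65 and 1.66 within slides 1 and 2. The standard error of Fasn in this fit takes in the spread of all 6 groups. Without PRCre uterus replicate 1, an array outside this comparison, the lesion difference was still 1.64 and its adjusted p 0.0263, the one alternative of 31 in which Fasn passed here (range up to 1).

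Scd1, the stearoyl-CoA desaturase that makes oleate and is abundant in fat and in sebaceous and hepatic tissue, read 2.37, 3.69 and 0.98 in PRCre lesions and 4.50, 4.39 and 4.77 in ERBOE lesions. PRCre lesions spread over 2.71 log2 units here and ERBOE lesions over 0.38. The difference was 2.21 ± 0.60 (4.63-fold, unadjusted p = 0.00245, adjusted p = 0.856, limma), and 3.42 and 1.75 within slides 1 and 2. Scd2, the desaturase isoform of most other tissues, read 3.48, 3.46 and 4.70 in PRCre and 4.45, 4.46 and 4.53 in ERBOE. These groups overlapped, and Scd2 was the one fatty acid gene without an unadjusted p under 0.05 (0.60 ± 0.40).

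Me1 had the smallest p of the set in lesions. Its levels were 2.33, 1.37 and 1.58 in PRCre lesions and 3.12, 3.45 and 3.11 in ERBOE lesions. The difference was 1.47 ± 0.28, a fold of 2.77 (unadjusted p = 9.91e-05, adjusted p = 0.368 in limma), with 1.87 and 1.26 within slides 1 and 2. Elovl6, which extends palmitate to stearate, read -0.14, -0.97 and 0.11 in PRCre and 0.70, 1.01 and 0.59 in ERBOE, a difference of 1.10 ± 0.47. Srebf1, which encodes the SREBP of the fatty acid genes, read 2.91, 3.05 and 3.58 in PRCre and 4.21, 3.60 and 4.01 in ERBOE, a difference of 0.76 ± 0.34. Its highest PRCre array lay 0.02 under its lowest ERBOE array.

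**Figure D4:**
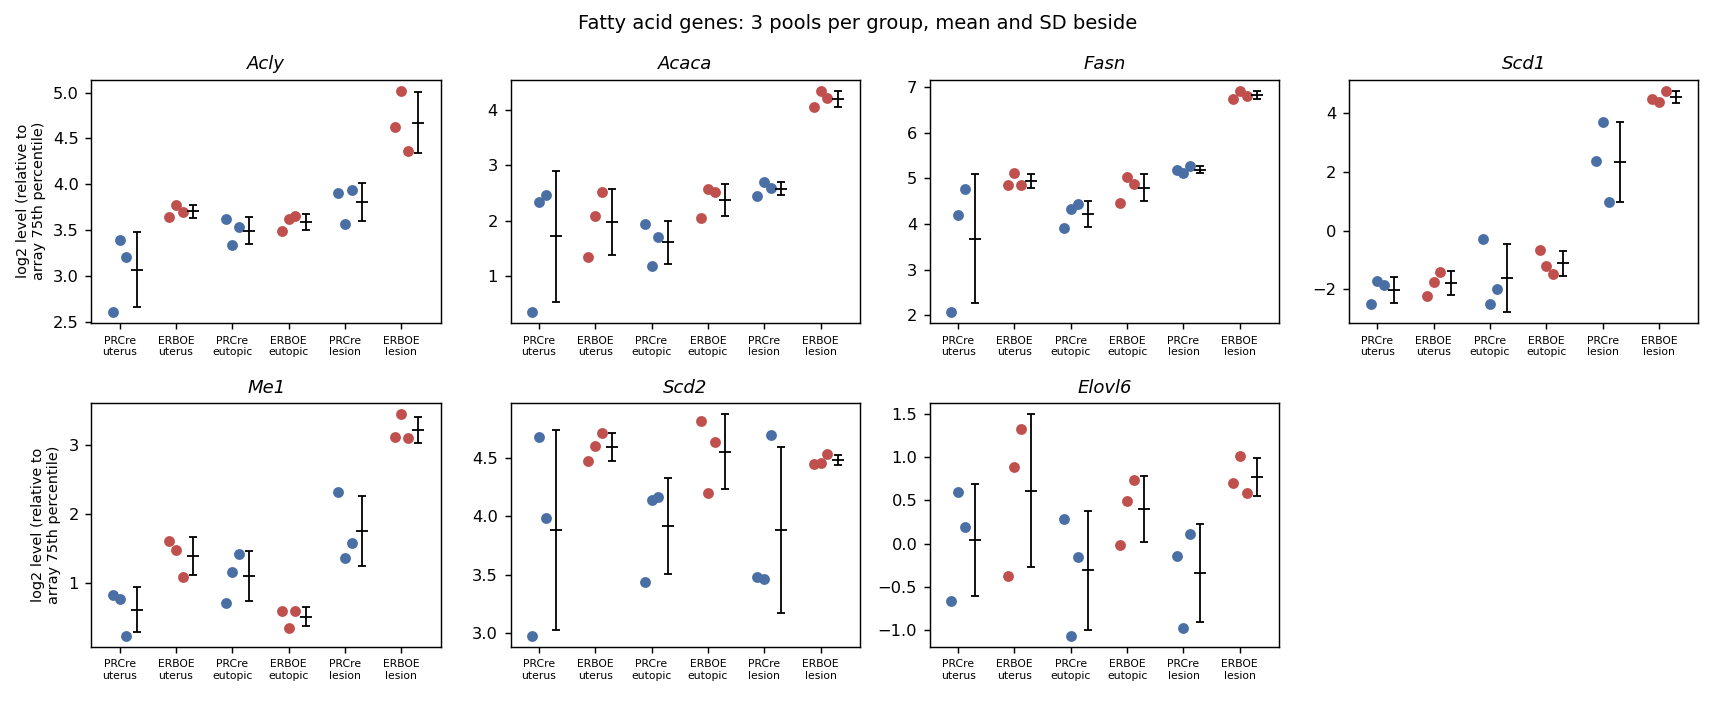
Log2 levels of the 7 fatty acid genes in 6 groups; each point is 1 array (PRCre blue, ERBOE red) and the black mark is the mean with its SD (n = 3). ERBOE lesions lie between 6.75 and 6.92 for Fasn and between 3.11 and 3.45 for Me1, above all other arrays, while for Scd2 and Elovl6 the ERBOE lesions lie within the range of the ERBOE uterus and eutopic arrays.

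Of the sterol genes in lesions, Hsd17b7, a ketosteroid reductase of the later steps, had the largest difference, 1.15 ± 0.55. Hmgcs1 read 2.09, 1.61 and 2.52 in PRCre lesions and 2.84, 2.52 and 2.78 in ERBOE lesions, the groups touching at 2.52, with a difference of 0.64 ± 0.38. Idi1 and Sqle differed by 0.91 ± 0.61 and 0.79 ± 0.71. For both, PRCre lesion replicate 2 was the lowest array, at -1.12 and -0.69. Tm7sf2 differed by 0.04 ± 0.24, with a 95% interval from -0.48 to 0.57 that lies below its uterine difference of 1.52. Srebf2 and Insig1 differed by 0.23 ± 0.48 and 0.27 ± 0.27.

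Averaged over the 3 tissues, ERBOE arrays read higher in 29 of 30 genes and in 40.8% of features, and 23 had an unadjusted p under 0.05, beside 4.11% of features higher and 4.85% lower. None of the 30 passed the adjusted threshold in limma, where 4 features or 0.012% did. The medians were 0.75 for sterol genes, 0.39 for regulators and 0.79 for fatty acid genes, beside -0.06 for all features. All 15 cell-cycle genes read higher as well, by a median of 1.16, 14 of them at an unadjusted p under 0.05, and their part was not tested. Fasn was first by p, at 1.16 ± 0.27 (adjusted p = 0.255, limma), and without PRCre uterus replicate 1 it was 0.89 with an adjusted p of 0.0467. Hmgcs1 followed at 0.90 ± 0.22, Tm7sf2 at 0.58 ± 0.14, Acly at 0.53 ± 0.13, Sc5d at 0.75 ± 0.20 and Me1 at 0.56 ± 0.16.

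Whether the genotype difference itself differed between tissues was tested as an interaction. None of the 30 genes passed in limma in any of the 3 interactions, nor did any feature (0% each). At an unadjusted p under 0.05 there were 2 of the 30 genes for lesions against uterus, 9 for eutopic against uterus and 2 for lesions against eutopic, beside 6.79%, 5.09% and 1.73% of features. Tm7sf2 came closest for lesions against uterus, at -1.48 ± 0.35 (unadjusted p = 0.000721, adjusted p = 0.465), and was at -1.34 ± 0.35 for eutopic against uterus. For eutopic against uterus 24 of 30 genes had a smaller genotype difference in eutopic tissue, 9 of them at an unadjusted p under 0.05 beside 2.28% of features lower, where 58.9% of features lay above 0. Among them were Insig1 at -1.46 ± 0.39 and Srebf2 at -1.72 ± 0.68. For lesions against uterus, Scd1 was at 1.97 ± 0.85 and Acaca at 1.36 ± 0.64. Me1 reversed between tissues: it was higher in ERBOE uterus and lesions and lower in ERBOE eutopic endometrium, where it read 0.59, 0.35 and 0.60 against 0.71, 1.16 and 1.43. Its interaction for lesions against eutopic was 2.05 ± 0.39 (unadjusted p = 0.000109, adjusted p = 1).

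The tissue comparisons gave the adjusted calls. Lesions of both genotypes together were set against eutopic endometrium, and 3 of 30 genes rose, Scd1, Me1 and Fasn, with 0 lower, beside 0.93% of features called higher and 0.299% lower. In all 24 of 30 read higher, as did 38.9% of features. Scd1 rose by 4.81 ± 0.43 (SE, n = 6 arrays per tissue), a fold of 28.1 (adjusted p = 0.000168, limma). In eutopic endometrium it read -0.30, -2.52 and -2.01 in PRCre and -0.65, -1.22 and -1.47 in ERBOE, below all 6 lesion arrays. Me1 rose by 1.69 ± 0.20 (3.22-fold, adjusted p = 0.000771, limma), although PRCre lesions and PRCre eutopic endometrium overlapped. Its group mean went from 1.10 to 1.76 in PRCre and from 0.51 to 3.23 in ERBOE. Scd1 and Me1 passed under all 31 alternatives.

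Fasn rose by 1.5 ± 0.33 against eutopic endometrium (2.83-fold, adjusted p = 0.0412, limma), and by 1.53 within slide 2, which held all 4 groups. It passed under 14 of 31 alternatives: with slide as a block it was 1.20 (adjusted p = 0.145), and its adjusted p lay between 0.0552 and 0.1 when any 1 array other than a PRCre uterus array was left out. Acaca and Acly missed the threshold narrowly, at 1.39 ± 0.32 and 0.70 ± 0.16 (adjusted p = 0.0508 for both, limma). From eutopic endometrium to lesions the mean of Fasn went from 4.22 to 5.19 in PRCre and from 4.79 to 6.83 in ERBOE. Acly went from 3.50 to 3.81 and 3.59 to 4.67, and Acaca from 1.61 to 2.57 and 2.38 to 4.19, in the same order. Scd2 and Elovl6 differed by -0.05 ± 0.28 and 0.17 ± 0.33. The medians were 1.39 for fatty acid genes, 0.22 for sterol genes and 0.14 for regulators, beside -0.09 for all features.

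Lesions against uterus gave 5 genes that rose and 0 that fell, beside 1.39% of features called higher and 0.652% lower. In all 15 of 30 read higher, as did 41.8% of features. They were Scd1 (5.36 ± 0.43, 40.9-fold, adjusted p = 6.13e-05), Me1 (1.49 ± 0.20, adjusted p = 0.00105), Acly (0.85 ± 0.16, adjusted p = 0.0135), Fasn (1.69 ± 0.33, adjusted p = 0.0169) and Acaca (1.54 ± 0.32, adjusted p = 0.0222), all by limma. Fitted on lesion and uterus arrays alone, Acly, Fasn and Acaca missed the threshold, at adjusted p of 0.0693, 0.0735 and 0.0826. Acaca also missed it, at 0.0509 to 0.062, without ERBOE lesion replicate 1 or 3, ERBOE uterus replicate 1 or 2, or PRCre lesion replicate 2, and Acly missed it at 0.0839 when all probes of a gene were averaged. The uterus mice had no surgery, which cannot be told apart from tissue here. The sterol genes had a median of -0.04 in this comparison, with 6 of 17 higher, none called, and Idi1 and Sqle at -0.45 ± 0.43 and -0.29 ± 0.50. That average joins genotypes that went in opposite directions. From uterus to lesions the middle sterol mean per array, centred over all arrays, went from -0.51 to -0.05 in PRCre. In ERBOE it went from 0.91 to 0.37. The arrays of both tissues overlapped in each genotype (PRCre -1.05 to -0.01 and -0.74 to 0.12, ERBOE 0.17 to 1.17 and 0.23 to 0.41).

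Eutopic endometrium against uterus gave 0 calls among the 30 genes and 0% of features in limma, with 0 of the 30 and 1336 features (3.99%) at an unadjusted p under 0.05. Of 17 sterol genes 16 read lower, by a median of -0.23, beside 0.03 for all features, of which 53.4% lay above 0. That average joins genotypes that went in opposite directions. From uterus to eutopic endometrium the middle sterol mean per array, centred over all arrays, went from -0.51 to -0.22 in PRCre. In ERBOE it went from 0.91 to -0.31. The arrays of both tissues overlapped in each genotype (PRCre -1.05 to -0.01 and -0.63 to -0.15, ERBOE 0.17 to 1.17 and -0.42 to 0.7).

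The genes around these enzymes were counted over a list of 52 on sterol uptake, export and transport and on fatty acid supply, extension and storage, all tested. None was called in a genotype comparison in limma. In the uterus 30 of 52 read higher in ERBOE, beside 40.5% of features. With an unadjusted p under 0.05 in limma there were 6 higher and 2 lower, beside 4.19% and 5.69% of features. Among the higher were Acacb, the mitochondrial acetyl-CoA carboxylase, at 1.32 ± 0.39 and the cytochrome b5 gene Cyb5b at 0.80 ± 0.31. In lesions 35 of 52 read higher, beside 43.4% of features. With an unadjusted p under 0.05 in limma there were 7 higher and 1 lower, beside 2.09% and 2.38% of features. The higher genes were led by Agpat2, an acyltransferase of triglyceride synthesis, at 0.94 ± 0.21. The citrate carrier gene Slc25a1 followed at 1.02 ± 0.25 and the acetyl-CoA synthetase gene Acss2 at 1.12 ± 0.31. Slc25a1 read 0.90, 0.85 and 1.54 in PRCre lesions and 1.96, 2.33 and 2.06 in ERBOE lesions.

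Between tissues, 5 of the 52 rose in lesions against eutopic endometrium and 0 fell, where 0.93% of features rose and 0.299% fell. These were Acsl1, which activates fatty acids (3.12 ± 0.43, adjusted p = 0.00196), Thrsp, a lipogenic nuclear protein (2.07 ± 0.36), the triglyceride synthesis genes Agpat2 (0.88 ± 0.15) and Dgat1 (0.91 ± 0.20), and Pnpla3, a lipid droplet protein (1.95 ± 0.43, adjusted p = 0.04), all by limma. Against uterus 7 rose and 0 fell, where 1.39% of features rose and 0.652% fell. They were these 5, the phosphatidate phosphatase gene Lpin1 (1.24 ± 0.29) and the sterol acyltransferase gene Soat1 (0.96 ± 0.23, adjusted p = 0.0479). Pnpla3 was not well above background on any uterus array.

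Adipocyte markers were also higher in lesions. Of 14 tested markers, 11 rose in lesions against eutopic endometrium, by a median of 3.48 over the list, and 12 against uterus, by a median of 3.99, beside 0.93% and 1.39% of features called higher. Their summed signal relative to the 75th percentile ran from 5.27 to 11.2 in the 6 uterus arrays, from 6.74 to 40.8 in eutopic endometrium, from 100 to 462 in PRCre lesions and from 440 to 679 in ERBOE lesions. Adipoq, the adiponectin gene, read 3.03, 4.60 and 1.77 in PRCre lesions and 4.89, 4.64 and 5.34 in ERBOE lesions. Plin1, the perilipin of the fat droplet, was not well above background in either uterus group, and Ucp1, the marker of brown fat, was not in any group. Lep and Cidea were called in neither tissue comparison, at -0.05 and 0.53 against eutopic endometrium and 0.09 and 0.30 against uterus. Between the lesion genotypes, 13 of 14 markers read higher in ERBOE by a median of 1.55, beside 43.4% of features. Of the 14, 5 were higher at an unadjusted p under 0.05 in limma, beside 2.09% of features, and 0 passed the adjusted threshold.

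Per array the adipocyte mean, centred over the 18 arrays, was 1.98, 3.3 and 1.25 in PRCre lesions and 3.40, 3.29 and 3.71 in ERBOE lesions. The fatty acid mean on the same arrays was 0.37, 0.28 and 0.31 in PRCre and 1.60, 1.80 and 1.63 in ERBOE. Over the PRCre lesion replicates Scd1 followed the order of the adipocyte mean, at 2.37, 3.69 and 0.98, while the fatty acid mean did not. PRCre lesion replicate 2 had as high an adipocyte mean as ERBOE lesion replicate 2, with a fatty acid mean 1.52 log2 units lower. On these 2 arrays Fasn read 5.12 and 6.92, Acaca 2.69 and 4.33 and Me1 1.37 and 3.45, while Scd1 read 3.69 and 4.39. This is 1 array against 1 and has no replicate check. The same 2 arrays differed in other lists too: the macrophage mean was 1.70 and 0.13, the leukocyte mean 1.11 and -0.35 and the cell-cycle mean -0.45 and 1.39. Macrophage markers also read higher in lesions, by a median of 0.94 against eutopic endometrium with 0 of 6 called. The part of adipocytes and of the other cell types in the difference between lesions and other tissues, and in that between the lesion genotypes, was not tested.

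**Figure D5:**
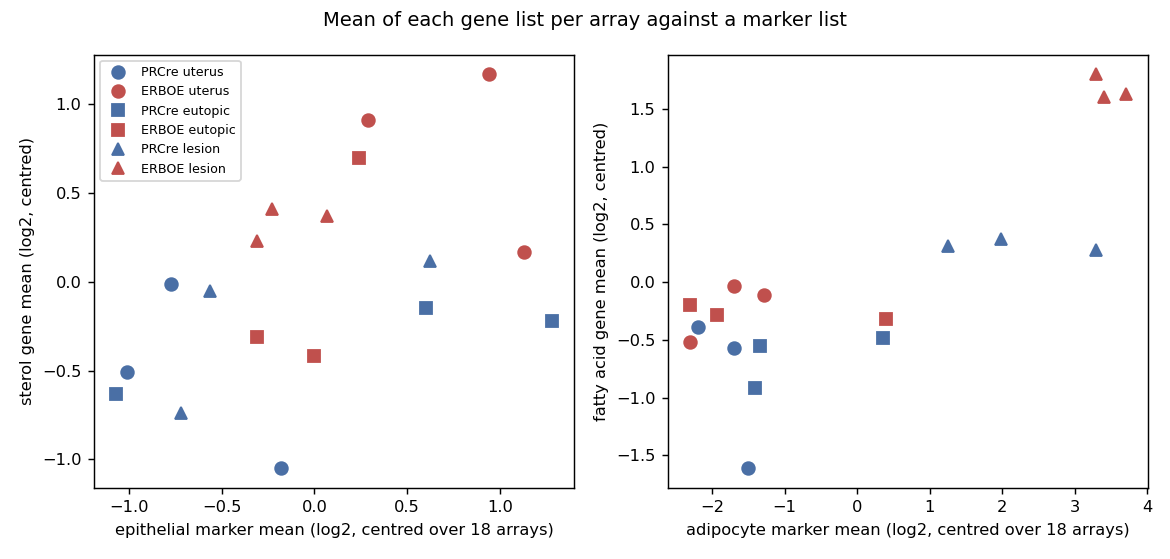
Mean log2 level per array, centred over 18 arrays, of the sterol genes against epithelial markers (left) and of the fatty acid genes against adipocyte markers (right); colour gives genotype and shape gives tissue. On the right the ERBOE lesions lie at fatty acid means of 1.60 to 1.80 and the PRCre lesions at 0.28 to 0.37. Their adipocyte means run from 3.29 to 3.71 in ERBOE and from 1.25 to 3.3 in PRCre. Only PRCre lesion replicate 2, at 3.3, reaches the ERBOE range, and the part of adipocytes was not tested.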

How the data were processed

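RNA of 18 pools was hybridised to 1-colour Agilent mouse arrays. The deposited scanner files hold intensity values for 56605 probes, background-subtracted by Agilent Feature Extraction 11.0.1.1, per the file headers. The authors' deposited value table holds log2 values centred per probe, with column medians of -0.15 to 0.36. Once each probe's mean over the arrays was subtracted from both, it matched the log2 intensity minus the array's 75th percentile (correlation and slope 1 on every array). It keeps differences between arrays but no level, and it was used as an alternative. Here each array was scaled the same way. Probes well above background on at least 3 arrays were kept, with the brightest probe per symbol (33456 features, 18015 with a symbol).

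In limma 3.58.1 (R 4.3.3), 6 group means were fitted over 18 arrays (12 residual degrees of freedom), with 10 comparisons, 2-sided tests and Benjamini-Hochberg adjustment over all features at 0.05. The script was tested on simulated data. Intervals are 95% intervals of the fit. The number of arrays limits the precision.

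All 30 genes may be named. Statistics in full go to those past the threshold, otherwise to up to 6 with the smallest unadjusted p under 0.05. Hmgcs1, Idi1, Sqle, Srebf1, Srebf2, Insig1, Fasn, Acaca, Scd1, Scd2, Me1 and Tm7sf2 are always named, and pathway genes past the threshold or among the 3 smallest p, of which 1 is not reported here. The genes, lists and tests were chosen with earlier results of these data known. Uterus arrays of equal replicate number deviated together (correlations of 0.39, 0.30 and 0.44), and those numbers coincide with the slides. For eutopic endometrium they were -0.26, -0.18 and 0.11, and for lesions -0.05, -0.34 and -0.20, so the numbers do not pair those arrays. Normexp correction used the median spot signal with an offset of 50, because the files used here hold no mean signal. Besides the normalization, filter, probe, variance, weight and block alternatives, each array was left out in turn.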

Additional observations from a re-analysis of the deposited data

Results flagged for a closer look

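The genotype difference of Me1, the malic enzyme that supplies NADPH for fatty acid synthesis, ran in opposite directions in different tissues with no overlap between genotypes in any of them. It was 0.79 in uterus, 1.47 in lesions and -0.59 in eutopic endometrium. The difference between eutopic endometrium and uterus was -1.37 and that between lesions and eutopic endometrium 2.05, with unadjusted p of 0.0033 and 0.000109 and adjusted p of 0.943 and 1 in limma, so neither passed over all features. Under 31 alternatives the first ran from -1.57 to -1.19 and the second from 1.86 to 2.34.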

How the results depend on the processing

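The summary results, which are the counts of called genes and the medians of the 3 gene sets in 10 comparisons, stayed within the spread between arrays or within 1.5 times the reported count in 1208 alternative values and did not in 32. For those 32 the cause was not tested. With array weights the uterus count was 1 (Tm7sf2), the uterus medians were 0.28 for fatty acid genes and 0.57 for regulators, and the fatty acid interaction of eutopic against uterus was 0.20. Without PRCre uterus replicate 1 and ERBOE eutopic replicate 3 together, an alternative chosen after seeing the data, the uterus medians were 0.26 and 0.53, and the fatty acid medians were 1.20 for lesions against uterus, -0.23 for eutopic against uterus, 0.88 for the interaction of lesions against uterus and 0.32 for that of eutopic against uterus. The count for lesions against eutopic endometrium was 5 in place of 3 in that fit, with array weights, with normexp, with trended robust variance, when probes had to be above background everywhere, and with the percentile taken over probes above background on all arrays. With slide as a block the fatty acid median there was 1.03. Fitted on the compared groups alone, the count for lesions against uterus was 2 in place of 5, and with the filter on all arrays the interaction of the regulators was -0.24.

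Leaving out 1 array at a time, the counts ran from 0 to 1 for lesions by genotype and for the average over tissues (1 without PRCre uterus replicate 1, Fasn) and from 2 to 5 for lesions against eutopic endometrium. The uterus medians ran from 0.26 to 0.85 for fatty acid genes and from 0.53 to 1.03 for regulators. The fatty acid medians ran from 1.20 to 1.53 for lesions against uterus, from -0.19 to 0.23 for eutopic against uterus, from 0.25 to 0.88 for the interaction of lesions against uterus and from -0.48 to 0.37 for that of eutopic against uterus, where the regulators ran from -0.92 to -0.45.

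Of single genes, 18 values turned sign, none of them called. In the uterus Acaca was -0.29 and Scd1 -0.03 with array weights, and without PRCre uterus replicate 1 they were -0.42 and -0.01. Leaving out single arrays, Acaca ran from -0.42 to 0.64 (0 without ERBOE uterus replicate 3) and Scd1 from -0.01 to 0.46. In eutopic endometrium without ERBOE replicate 3, Idi1 was -0.42 (range -0.42 to 0.59, -0.03 without PRCre replicate 1), Sqle -0.23 (to 0.82) and Srebf1 -0.07 (to 0.33). In lesions Tm7sf2 was -0.02 with normexp and ran from -0.13 to 0.31 without single arrays (-0.01 without ERBOE replicate 1, -0.05 without PRCre replicate 2).

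With the replicate number as a block the count of called genes was 0 in the uterus (also in the uterus arrays alone), 5 for lesions against uterus and 4 for lesions against eutopic endometrium, where Acaca joined at an adjusted p of 0.0393 in limma, and it changed no other call. Over all features, 411 were called for lesions against eutopic endometrium, 1348 with array weights, 236 with the filter on all arrays, 257 in the compared groups alone and 270 without both arrays. For lesions against uterus 683 were called, 1948 with array weights and 364 in the compared groups alone. The genotype average over tissues called 4 features, with 1 to 10 under the alternatives. Dhcr7 and Srebf2 lie close to background, which limits their precision.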
